A study of Mus musculus with 11 samples.

Results

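The collagen genes are the 44 protein-coding genes of the annotation whose symbol has the form Col, a number, a, a number, among 52282 genes that received a value in the inguinal white fat of mice, which lies under the skin. They were chosen by symbol and not by any measured value. The study sequenced bulk RNA of 11 samples from C57BL6/J animals that were 16 weeks old, in a 2 by 2 design that addresses how mTORC1 (the kinase complex that needs Raptor) and PPARG (the nuclear receptor that rosiglitazone activates) act together in this tissue. KO tissue carried floxed Raptor alleles and a Cre recombinase under the adiponectin promoter, which is active in adipocytes, and WT tissue came from floxed mice whose genotype label names no Cre. The Cre acts in adipocytes, so other cells of the depot keep an intact Raptor gene. All mice ate a high-fat diet for 8 weeks, alone or with rosiglitazone, dosed at 30 mg per kg each day. The groups held 3 libraries of WT on diet, 3 of WT with rosiglitazone, 2 of KO on diet and 3 of KO with rosiglitazone. In the labels of the 6 WT libraries, titles and treatment characteristics contradict each other on who received rosiglitazone. The characteristic was followed, so every comparison that separates the WT treatments holds under that label, while the comparison of KO with WT averaged over treatments gives the same values under either label. Whether replicates came from separate animals is not given in the sources used here, and p-values therefore measure only how these libraries spread, which may be technical.

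Collagens are secreted or membrane proteins in which 3 chains wind into a triple helix. Fibrillar collagens form the tensile fibres of the interstitium, collagen IV forms the sheet of basement membranes (each mature adipocyte is wrapped in one), collagen VI forms beaded filaments close to cells, and fibril-associated collagens decorate the fibres. In white fat the fibrillar chains are made mainly by fibroblasts and adipocyte progenitors, whereas mature adipocytes and endothelial cells are also known sources of basement membrane collagens. By class the 44 genes divided into 11 fibrillar, 6 basement membrane, 6 beaded filament, 9 fibril-associated, 4 transmembrane, 3 short-chain, 2 multiplexin, 1 anchoring fibril and 2 other genes. Of these, 41 passed the filter on low counts. Col2a1, Col9a1 and Col9a2, which are among the collagens of cartilage, did not, with at most 4, 5 and 10 reads in any library. Other cartilage chains, such as Col9a3, Col10a1, Col11a1 and Col11a2, passed.

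Depth was 13035346 to 40925952 estimated reads per library. Rptor, the deleted gene, measured 92.0, 80.1 and 73.9 CPM (counts scaled to a common library size) in WT on diet, 119, 126 and 111 CPM in WT with rosiglitazone, 56.5 and 69.6 CPM in KO on diet and 88.3, 82.4 and 91.7 CPM in KO with rosiglitazone. These reads come from the whole gene and from every cell type. Averaged over treatments its log2 fold change was -0.41 ± 0.11 (SE) in KO (edgeR, adjusted p = 0.0403). Libraries differed in cell content. Summed skeletal muscle markers took 3.7%, 1.57%, 1.48% and 0.733% of reads in KO with rosiglitazone replicate 2, WT on diet replicate 2, WT with rosiglitazone replicate 3 and WT with rosiglitazone replicate 2. The other 7 libraries had 0.115% or less. The 15 mature adipocyte markers summed to 15270 to 46060 CPM in the 6 WT libraries and 3208 to 9619 CPM in the 5 KO libraries, and the adipocyte hormone gene Adipoq was at 57.7 CPM or above in every library. The 13 macrophage markers summed to 662 to 1320 CPM in WT and 1200 to 3676 CPM in KO. In whole tissue, fewer cells of a type and less RNA per cell cannot be told apart.

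Measured per transcript length (TPM), 4 collagens made up most of the collagen transcript pool in every group: Col3a1, Col4a1, Col1a1 and Col1a2, the only members with a mean of at least 100 TPM over all libraries. Col3a1, the chain of type III fibrils, was the most abundant in WT on diet at 623 TPM on average, followed by Col4a1, the main chain of basement membranes, at 562 TPM. These neighbours did not differ beyond their spread, with single libraries at 841, 504 and 525 TPM for Col3a1 and 878, 444 and 364 TPM for Col4a1. In WT with rosiglitazone Col4a1 (293 TPM) and Col3a1 (282 TPM) again lay together, ahead of Col1a1 (128 TPM) and Col1a2 (127 TPM), the 2 chains of type I collagen. In KO with rosiglitazone the order was Col3a1 (442 TPM), Col1a1 (314 TPM), Col1a2 (270 TPM) and Col4a1 (156 TPM). Every one of those 3 libraries had more Col1a1 (318, 234 and 391 TPM) than Col4a1 (106, 157 and 206 TPM). Summed over all transcripts, each of the 6 WT libraries had more Col4a1 than Col1a1. This WT order depends on the transcripts counted. With only the coding transcript that held the most reads, Col1a1 over Col4a1 was 0.666, 0.898 and 1.84 in WT on diet. It was 1.43, 1.22 and 2.01 in WT with rosiglitazone. On that basis Col3a1 over Col4a2 was 2.05 to 4.19 in WT. Col4a1 over Col4a2 was 1.09 to 1.30, so Col3a1 lay above Col4a1. Of the 44 genes, 15 averaged at least 10 TPM and 28 at least 1 TPM.

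The composition of the pool separated the genotypes, while the 2 treatments overlapped within WT for each of the 3 classes with the most transcripts. Fibrillar collagens held 42.2%, 47.5% and 54.5% of summed collagen TPM in WT on diet and 46.0%, 50.3% and 54.7% in WT with rosiglitazone. They held 67.4% and 63.4% in KO on diet and 77.1%, 65.2% and 67.5% in KO with rosiglitazone, so that every KO library lay above every WT library. Basement membrane collagens held 22.4% to 32.2% in the 6 WT libraries and 10.2% to 15.8% in the 5 KO libraries. The multiplexins Col15a1 and Col18a1, which sit in and beside basement membranes, held 5.76% to 9.16% in WT and 2.80% to 4.58% in KO. The beaded filament chains overlapped, at 9.23% to 14.0% against 6.67% to 10.1%. These shares are a description without a test, and they depend on which transcripts of a gene are counted. With only the coding transcript that held the most reads of each gene, the fibrillar share was 48.4% to 65.2% in WT and 74.7% to 84.5% in KO, and the basement membrane share 12.6% to 22.8% against 5.47% to 8.73%.

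**Figure D1:**
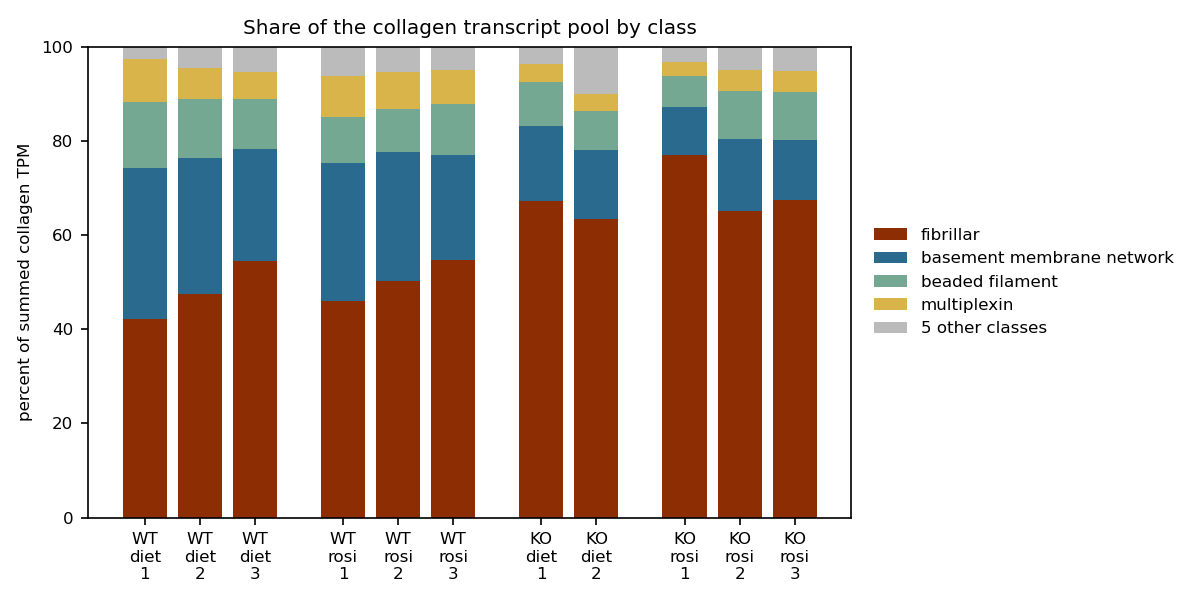
Share of summed collagen TPM (y axis, percent) held by each class in each of the 11 libraries (x axis; rosi is rosiglitazone, the number is the replicate). The fibrillar segment is 42.2% to 54.7% in WT libraries and 63.4% to 77.1% in KO libraries, and the basement membrane segment is the smaller one in every KO library.

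KO against WT tissue with rosiglitazone, 3 libraries against 3, was the comparison of 2 groups with calls among the collagens. Type I collagen rose with the lowest adjusted p: Col1a1 was 3.78-fold and Col1a2 3.22-fold higher in KO, and the minor fibrillar chains Col11a1, Col11a2 and Col27a1 rose with them. In all, 5 of 41 tested collagens were higher and 0 lower by edgeR's quasi-likelihood test (adjusted p under 0.05 over 26960 genes), where 15% of all tested genes were called, 5.47% higher and 9.5% lower. All 5 are fibrillar, of 10 fibrillar genes tested. The median log2 fold change was 0.55 over the 41 collagens and 0.05 over all genes, and by class it was 1.21 for fibrillar, 1.11 for beaded filament and -0.18 for basement membrane chains.

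Col1a1 (ENSMUSG00000001506.10, GRCm38 chr11:94936224-94953042, plus strand) encodes the chain present in 2 copies in each type I molecule. It measured 645, 770 and 837 CPM in WT with rosiglitazone and 4163, 1901 and 2442 CPM in KO with rosiglitazone. The groups did not overlap, and the lowest KO library stood above the highest WT library by more than the spread within WT. The log2 fold change was 1.92 ± 0.43 (SE; edgeR, adjusted p = 0.0171). Col1a2 (ENSMUSG00000029661.16, GRCm38 chr6:4504814-4541544, plus strand), the partner chain, measured 530, 655 and 805 CPM in WT and 3007, 1511 and 1878 CPM in KO, also without overlap. Its log2 fold change was 1.68 ± 0.42 (edgeR, adjusted p = 0.0251). KO replicate 1 was the highest library for both chains.

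The 250 bases before the RefSeq start of Col1a2 are shown because Col1a2 was called in both comparisons that gave calls, together with those of Col27a1, whose averaged call below held with any 1 library left out, and of Col5a3, a fibrillar chain on the other side of 0. Each is written 5′ to 3′ on the gene's strand, and capitals mark 3 motifs on either strand: the CCAAT box (ATTGG when on the other strand), the TATAAA box (there TTTATA) and the GC box GGGCGG (there CCGCCC). They span GRCm38.p6 chr6:4505368-4505617 (plus strand), chr4:63215162-63215411 (plus strand) and chr9:20815068-20815317 (minus strand).
Col1a2: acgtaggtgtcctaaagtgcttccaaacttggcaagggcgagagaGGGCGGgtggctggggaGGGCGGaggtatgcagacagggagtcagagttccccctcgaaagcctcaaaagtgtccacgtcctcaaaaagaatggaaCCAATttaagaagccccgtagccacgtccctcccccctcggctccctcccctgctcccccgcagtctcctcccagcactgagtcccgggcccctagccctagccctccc
Col27a1: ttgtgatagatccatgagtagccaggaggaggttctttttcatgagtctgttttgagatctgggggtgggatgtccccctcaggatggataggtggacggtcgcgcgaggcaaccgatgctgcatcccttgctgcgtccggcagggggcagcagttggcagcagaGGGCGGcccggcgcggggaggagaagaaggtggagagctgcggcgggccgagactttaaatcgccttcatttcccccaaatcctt
Col5a3: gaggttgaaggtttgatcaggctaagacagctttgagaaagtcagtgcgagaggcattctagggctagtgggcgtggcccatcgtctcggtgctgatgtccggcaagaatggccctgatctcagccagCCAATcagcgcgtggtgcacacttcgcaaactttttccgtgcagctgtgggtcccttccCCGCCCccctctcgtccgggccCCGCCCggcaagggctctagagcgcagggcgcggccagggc
Both Col1a2 and Col5a3 hold 1 CCAAT and 2 GGGCGG matches, and Col27a1 holds 1 GGGCGG match, so Col1a2, higher in KO, and Col5a3, whose values lay lower in KO, hold the same numbers of these letters. In RefSeq windows of 300 bases (250 before to 50 after the start), which exist for 35 of the 44 genes, GGGCGG occurred in 22 of 35 collagens and in 35.7% of all 32851 windows. CCAAT occurred in 13 of 35 against 37.4%, TATAAA in 5 of 35 against 13.6%, CAGACA, a core of SMAD sites, in 9 of 35 against 21.04%, and the perfect direct repeat to which PPARG dimers bind in 0 of 35 against 0.0396%. All were searched on both strands. A collagen gene counted if any of its windows matched (38 windows for 35 genes), whereas the shares of all are per window. A match is a description of the letters and not of a bound site.

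The other 3 called chains were present at low levels. Col27a1, a fibrillar chain best known from cartilage (ENSMUSG00000045672.15, GRCm38 chr4:63214004-63334991, plus strand), measured 18.0, 22.6 and 17.6 CPM in WT and 35.5, 40.0 and 27.8 CPM in KO, with a log2 fold change of 0.82 ± 0.24 (edgeR, adjusted p = 0.0464). Its coding transcript took 34.0% of its reads, the rest being assigned to noncoding transcripts of the gene. Col11a2 measured 1.39, 0.996 and 1.14 CPM in WT and 6.36, 4.44 and 5.41 CPM in KO (2.20 ± 0.65, adjusted p = 0.0484 by edgeR). Col11a1, which nucleates thin fibrils together with Col11a2, rested on 6 to 22 reads per WT library and 15 to 30 per KO library. It measured 0.426, 0.684 and 0.381 CPM against 1.87, 1.13 and 1.37 CPM (1.52 ± 0.41, adjusted p = 0.0345 by edgeR). On the log2(TPM + 1) scale the Col11a1 value was -0.08 and on log2(TPM + 0.1) it was -0.30, so its direction depends on the scale.

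Col3a1 and the type V chains Col5a1 and Col5a2, which regulate fibril diameter, also lay higher in every KO library without passing the test. Col3a1 measured 911, 1191 and 1379 CPM in WT and 4335, 2230 and 2725 CPM in KO (log2 fold change 1.42 ± 0.48, adjusted p = 0.0768 by edgeR). Col5a1 stood at 0.60 ± 0.41 and Col5a2 at 0.74 ± 0.46, with adjusted p of 0.343 and 0.290 by edgeR. Col5a3, the third type V chain, lay on the other side: 548, 823 and 722 CPM in WT against 283, 232 and 254 CPM in KO (-1.44 ± 0.51, adjusted p = 0.0853 by edgeR). Col5a3 was the tested collagen with the lowest log2 fold change in this comparison, and its groups did not overlap. DESeq2 called it lower at -1.45 (adjusted p = 0.0243), limma-voom at -1.41 (adjusted p = 0.00152) and limma-trend on log2(TPM + 1) at -1.96 (adjusted p = 0.0177). The edgeR fits with RLE scaling, no filter, the replicate block, the muscle or B-cell covariate or protein-coding transcripts only did not call it.

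Outside the fibrillar class the 6 beaded filament genes all had positive values and 0 calls. Col6a1, Col6a2 and Col6a3, the chains of the common collagen VI molecule, stood at 0.65 ± 0.50, 0.21 ± 0.49 and 0.73 ± 0.44 (edgeR, adjusted p from 0.283 to 0.80). Of these, Col6a3 measured 291, 334 and 403 CPM in WT and 570, 525 and 613 CPM in KO, and Col6a2 overlapped between the groups. The alternative chain Col6a6 stood at 1.5 ± 0.50 (adjusted p = 0.0731 by edgeR), from 0.853, 1.34 and 3.30 CPM to 6.61, 3.54 and 4.92 CPM. Among basement membrane chains, Col4a1 measured 718, 889 and 681 CPM in WT and 691, 605 and 618 CPM in KO (-0.26 ± 0.46, adjusted p = 0.740 by edgeR), and Col4a2 stood at -0.36 ± 0.49. Col4a5, a chain of the specialised basement membranes of kidney and muscle, stood at 1.01 ± 0.33 (adjusted p = 0.0705 by edgeR). Among the multiplexins Col15a1 measured 367, 365 and 373 CPM in WT and 185, 173 and 189 CPM in KO, tight groups that did not overlap, with a log2 fold change of -1.01 ± 0.52 (adjusted p = 0.208 by edgeR). The model shares 1 estimate of spread over all groups, and the WT libraries on diet were at 969, 303 and 217 CPM.

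Groups did not overlap in 18 collagens higher and 6 lower in KO with rosiglitazone, where this was so for 23.5% and 24.7% of all tested genes. Without adjustment 12 collagens were higher and 3 lower, against 13.6% and 17.7% of all genes. DESeq2 called 8 higher and 1 lower (8.93% and 13.1% of all genes), limma-voom 12 and 3 (14.9% and 19.2%), and edgeR with the B-cell covariate 12 and 0 (5.2% and 5.53%). Of the 5 calls that last fit kept 2, Col1a1 and Col1a2, and lost Col11a1, Col11a2 and Col27a1. The replicate block gave 2 calls, the same type I chains (12.8% of all genes), and the muscle covariate 1, Col1a1 (10.5%). The count of 5 calls was 0 with WT libraries grouped by title (2.31% of all genes called), 0 without the 4 libraries richest in muscle reads, a fit that called 0 genes in all, and from 0 up to 10 when 1 library was dropped. It was 0 without WT with rosiglitazone replicate 1 (7.86% of all genes called) or 2 (5.6%) or KO with rosiglitazone replicate 1 (6.13%). It was 1 without WT with rosiglitazone replicate 3 (8.34%; Col6a6, which is none of the 5) or KO with rosiglitazone replicate 3 (5.6%; Col1a1). It was 3 without WT on diet replicate 2 (12.8%) or KO with rosiglitazone replicate 2 (8.98%), both times Col1a1, Col1a2 and Col11a1. It was 8 without KO on diet replicate 1 (18.7%) or 2 (18.9%) and 10 without WT on diet replicate 1 (22.1%), and these 3 fits kept all 5 and also called Col5a3 lower. With a library left out, the Col1a1 log2 fold change ranged from 1.53 to 2.20 and its adjusted p (edgeR) from 0.00685 to 0.0688. Counting only protein-coding transcripts, 9 collagens were higher and 0 lower, with Col3a1, Col4a5, Col4a6, Col6a6 and Col16a1 added and Col11a2 lost, where 9.67% and 11.9% of all genes were called. On the log2(TPM + 1) scale the median of all genes moved to -0.30 and the collagen median to -0.02, and Col5a3, lower, was the 1 collagen called, where 15.1% of all genes were.

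**Figure D2:**
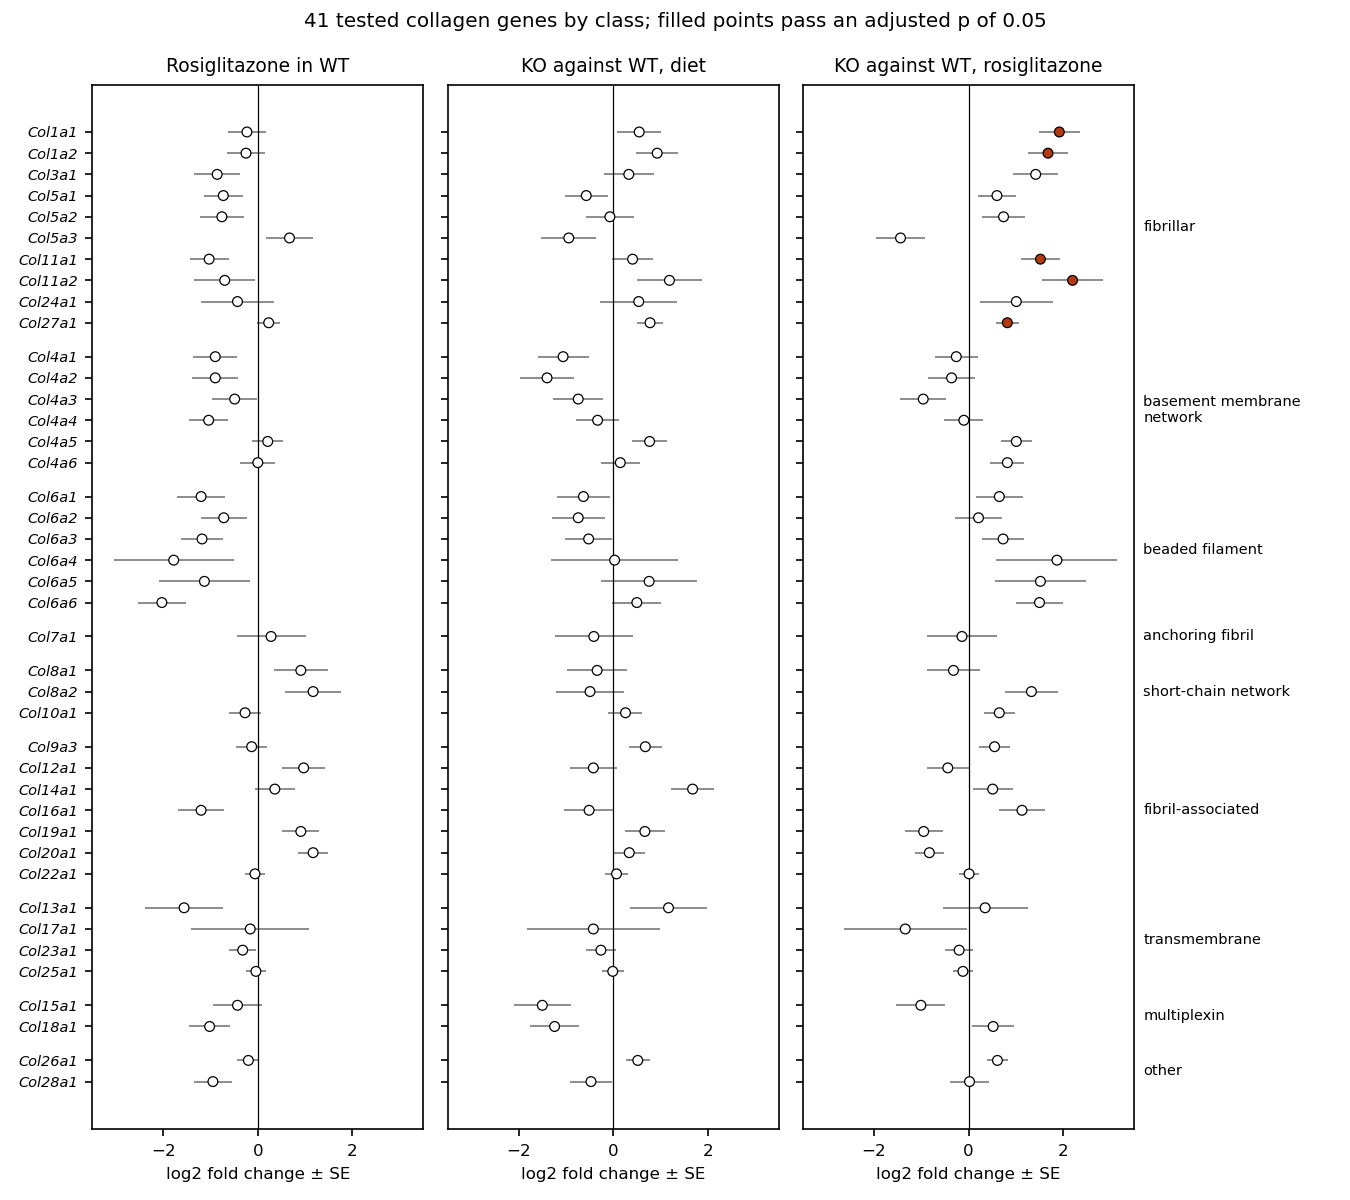
Log2 fold change with its standard error (x axes) of the 41 tested collagens, ordered by class (y axis), in 3 comparisons. Filled points, the 5 fibrillar genes in the right panel, pass an adjusted p of 0.05 by edgeR.

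Averaged over treatments, 5 KO libraries against 6 WT libraries, type I collagen was again higher in KO, and the fibril-associated chain Col14a1 and the basement membrane chain Col4a5 also rose. This comparison shares the rosiglitazone libraries with the one above and is not independent of it. It called 6 of 41 collagens higher and 0 lower by edgeR, where 12.8% of all tested genes were called, 4.57% higher and 8.2% lower. The median log2 fold change was 0.11 over the collagens and 0.05 over all genes. The collagen median was 0.02 without KO with rosiglitazone replicate 1, 0.03 without KO on diet replicate 1 and 0.05 with either WT on diet replicate 2 or WT with rosiglitazone replicate 1 left out. It was 0.37 when WT on diet lost replicate 1, 0.19 when it lost replicate 3, 0.18 without KO with rosiglitazone replicate 2 and 0.17 without WT with rosiglitazone replicate 3. Col1a2 rose by 1.31 ± 0.30 (adjusted p = 0.0216 by edgeR) and Col1a1 by 1.24 ± 0.31 (adjusted p = 0.0294 by edgeR). With 1 library left out, the Col1a2 call was kept in 8 of 11 fits and the Col1a1 call in 4 of 11. Both calls were lost on both TPM scales and with the muscle covariate. On diet, Col1a1 measured 1083, 592 and 972 CPM in WT and 1833 and 758 CPM in KO, and Col1a2 measured 988, 508 and 878 CPM against 2096 and 928 CPM, so that both overlapped between genotypes on diet.

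Col27a1 was the 1 collagen of 41 whose 5 KO libraries all lay above all 6 WT libraries, where 1.77% of all tested genes did so, and 0 lay below without overlap, against 3.75%. On diet it measured 11.9, 17.5 and 20.4 CPM in WT and 34.1 and 23.1 CPM in KO. Its averaged log2 fold change was 0.80 ± 0.18 (adjusted p = 0.0183 by edgeR), it passed in 11 of 11 fits that left out 1 library, with an adjusted p of 0.0143 to 0.0493, and it missed the threshold on both TPM scales and without the 4 muscle-rich libraries. Col14a1, which links fibrils to the surrounding matrix (ENSMUSG00000022371.16, GRCm38 chr15:55307750-55520803, plus strand), rose by 1.09 ± 0.31 (adjusted p = 0.0470 by edgeR). It measured 65.8, 24.4 and 59.3 CPM in WT on diet, 52.7, 72.3 and 66.8 CPM in WT with rosiglitazone, 231 and 88.3 CPM in KO on diet and 117, 68.1 and 87.3 CPM in KO with rosiglitazone. KO on diet replicate 1 was far above the other 10 libraries, and without it the value was 0.66 and the call was lost. The call was kept in 3 of 11 fits that left out 1 library, those without WT on diet replicate 1, KO on diet replicate 2 or KO with rosiglitazone replicate 2. Col4a5 rose by 0.89 ± 0.25 (adjusted p = 0.0426 by edgeR), at 6.78 to 11.4 CPM in WT and 7.71 to 23.7 CPM in KO. That call was kept in 2 of 11 fits with 1 library left out, those without WT on diet replicate 1 or KO on diet replicate 2. Over the 11 fits the value was 0.48 to 1.15.

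Col11a2 rose by 1.69 ± 0.47 (adjusted p = 0.0421 by edgeR), and its level differed widely between libraries of a group on diet. Its call was kept in 3 of 11 fits with 1 library left out, and over all 11 the value was 0.83 to 2.07. It measured 0.564, 2.46 and 2.76 CPM in WT on diet and 1.33 and 7.39 CPM in KO on diet, where the 10 B-cell markers summed to 459, 1277 and 1089 CPM and to 226 and 1332 CPM in the same order. With rosiglitazone those sums were 520, 210 and 388 CPM in WT and 799, 900 and 950 CPM in KO. Col6a4, a collagen VI chain, was likewise lowest in replicate 1 of both groups on diet, at 0.477, 9.14 and 7.82 CPM in WT on diet and 0.739 and 11.02 CPM in KO on diet. With the summed B-cell markers as a covariate the averaged Col11a2 value was 1.22 (adjusted p = 0.00621 by edgeR), but in KO with rosiglitazone it was 0.92 and the call was lost (adjusted p = 0.203 by edgeR). For Col6a4 the part of lymphocyte content was not tested.

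The lowest values in the averaged comparison belonged to Col15a1 (-1.25 ± 0.40, adjusted p = 0.0657 by edgeR) and Col5a3 (-1.19 ± 0.39, adjusted p = 0.0723 by edgeR), and DESeq2 (adjusted p = 0.00953 and 0.0131) and limma-voom (0.0496 and 0.0460) called both lower. So did edgeR with the B-cell covariate. The edgeR fits with RLE scaling, no filter, the muscle covariate or protein-coding transcripts only called neither. The count of 6 was 1, Col27a1, without WT with rosiglitazone replicate 1 (7.91% of all genes called) or 2 (6.9%) or KO with rosiglitazone replicate 1 (7.34%). It was 2, Col1a2 and Col27a1, without WT on diet replicate 2 (11%) or KO with rosiglitazone replicate 3 (7.39%), and 3 without WT with rosiglitazone replicate 3 (8.67%). Without KO on diet replicate 1 it was 10, 6 higher and 4 lower (17.8%), but only Col1a2, Col11a2 and Col27a1 of the 6 were kept, and Col1a1, Col14a1 and Col4a5 were lost. It was 0 without the 4 libraries richest in muscle reads, where 0 genes were called in all. DESeq2 called 9 higher and 2 lower (7.24% and 11.9% of all genes), limma-voom 5 and 2 (3.7% and 5.99%), edgeR with the B-cell covariate 9 and 3 (8.15% and 12.2%) and with only protein-coding transcripts 9 and 0 (9.39% and 10.8%). Without adjustment edgeR gave 11 higher and 4 lower, against 12.7% and 16.5%. On the log2(TPM + 1) scale 1 collagen was called, Col5a3, and it was lower, where 7.42% of all genes were called.

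**Figure D3:**
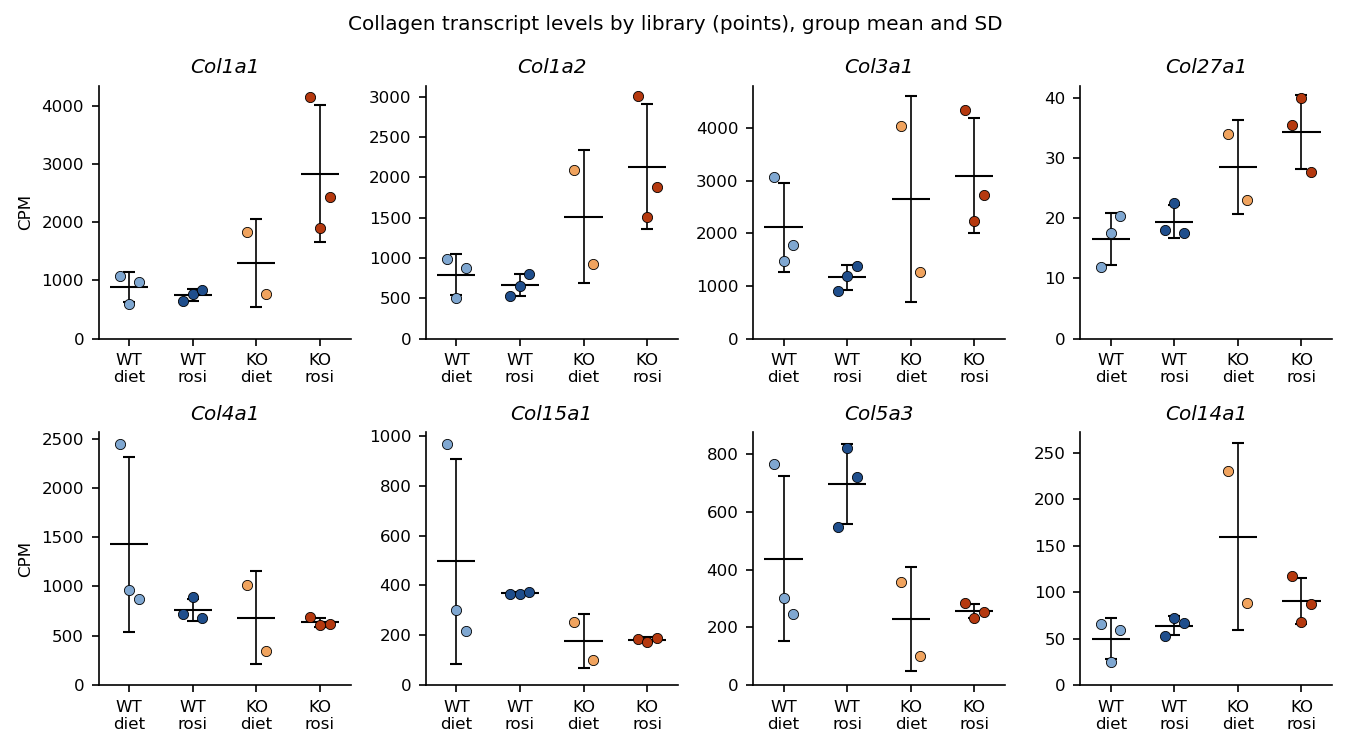
CPM (y axes, linear from 0) of 8 collagens in the 11 libraries (points) by group (x axes), with the group mean as a horizontal line and the SD as a bar. Col1a1, Col1a2, Col3a1 and Col27a1 are highest in KO with rosiglitazone on average, Col5a3 is lower in each KO library with rosiglitazone than in each WT library with it, and WT on diet replicate 1 stands above the other libraries for Col4a1 and Col15a1.

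Between KO and WT on diet alone, 2 libraries against 3, edgeR called 0 of 41 collagens, where 0.137% of all tested genes were called, and 2 were higher and 3 lower without adjustment. Of all genes 0.026% were called higher and 0.111% lower, and 4.57% and 5.92% passed without adjustment. DESeq2 called 1, Col14a1, higher, where it called 0.816% of all genes higher and 1.91% lower, and limma-voom called 0. With the B-cell covariate 2 collagens were higher and 7 lower, against 0.938% and 5.34% of all genes. Groups did not overlap for 4 collagens higher and 1 lower, against 10.5% and 10.3%. The highest value was that of Col14a1 (log2 fold change 1.68 ± 0.46, adjusted p = 0.217 by edgeR) and the lowest that of Col15a1 (-1.50 ± 0.60, adjusted p = 0.414 by edgeR). The basement membrane chains Col4a1 and Col4a2 stood at -1.06 ± 0.54 and -1.40 ± 0.57, and Col18a1 at -1.24 ± 0.51. Col4a1 measured 2451, 960 and 870 CPM in WT and 1017 and 349 CPM in KO, and Col4a2 measured 1637, 555 and 462 CPM against 486 and 185 CPM. WT on diet replicate 1 held more than 2 times the Col4a1 of any other library, and it also held 46060 CPM of mature adipocyte markers against 18270 and 15270 CPM in replicates 2 and 3. In WT with rosiglitazone the same markers summed to 39930, 45440 and 41910 CPM, where Col4a1 measured 718, 889 and 681 CPM. The part of adipocyte content in the Col4a1 values was not tested. KO on diet replicate 2 was lower than replicate 1 in every one of Col1a1, Col1a2, Col3a1, Col4a1, Col4a2, Col6a1, Col6a2 and Col6a3.

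Rosiglitazone in WT tissue, 3 libraries against 3, gave lower values for most collagens without a call. By edgeR 0 of 41 passed, where 2.14% of all tested genes were called (1.55% higher, 0.593% lower). Without adjustment, at p under 0.05, 2 were higher and 8 lower, against 9.93% and 7.5% of all genes. Limma-voom called 7, of which Col12a1, Col5a3, Col20a1, Col8a1 and Col19a1 were higher and Col6a6 and Col6a3 lower, where it called 16.9% of all genes higher and 10.3% lower. The median log2 fold change was -0.43 over the collagens and -0.05 over all genes, and 31 of 41 values were below 0. The collagen median was -0.24 when WT on diet lost replicate 1, -0.26 when it lost replicate 3 and between -0.64 and -0.33 with any other single library left out. It was -0.17 by limma-voom, -0.71 with the B-cell covariate, -0.73 with coding transcripts only, -0.72 without the 4 libraries richest in muscle reads and 0.43 with WT libraries grouped by title. On log2(TPM + 1) the collagen median was -0.21 against -0.13 over all genes, and on log2(TPM + 0.1) it was -0.40 against -0.20. All 6 beaded filament chains were below 0 with a median of -1.19. Col6a6 had the lowest value (-2.03 ± 0.50, adjusted p = 0.0716 by edgeR), at 11.5, 5.06 and 5.22 CPM on diet and 0.853, 1.34 and 3.30 CPM with rosiglitazone, which did not overlap. Col6a3 measured 1256, 533 and 547 CPM on diet and 291, 334 and 403 CPM with rosiglitazone (-1.18 ± 0.45, adjusted p = 0.207 by edgeR), and Col6a1 stood at -1.20 ± 0.50. Grouped by the titles, each WT value in this comparison changes sign. Non-overlapping groups were found for 9 collagens lower and 2 higher, against 10.4% and 13.4% of all tested genes.

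The 2 collagens that lay higher without overlap in that comparison were fibril-associated. Col20a1 measured 2.60, 3.05 and 5.01 CPM on diet and 5.86, 10.1 and 7.86 CPM with rosiglitazone (log2 fold change 1.17 ± 0.31, adjusted p = 0.0844 by edgeR), the highest value by the rule for naming genes. Col12a1, which lies along type I fibrils, measured 85.1, 34.0 and 42.7 CPM against 105, 113 and 98.6 CPM (0.97 ± 0.45, adjusted p = 0.30 by edgeR). DESeq2 called Col20a1 higher and Col6a6 lower, against 4.64% and 2.7% of all genes. Counting only protein-coding transcripts, Col6a6 and Col11a1 were lower and 0 higher, against 1.82% and 2.95%. With the summed B-cell markers as a covariate, edgeR called 9 collagens lower and 0 higher, where 2.61% and 2% of all genes were called: Col6a1, Col6a2, Col6a3, Col4a1, Col4a2, Col18a1, Col3a1, Col5a1 and Col5a2. Those are major interstitial and basement membrane chains, and their log2 fold changes in that fit lay between -1.87 and -1.28. The abundant chains Col1a1, Col1a2, Col5a3 and Col15a1 were not called in it. The covariate was measured in the same libraries and differed between the groups.

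Rosiglitazone in KO tissue, 3 libraries against 2, gave 0 calls among the 41 collagens by edgeR, where 0.0148% of all tested genes were called (0.0111% higher, 0.00371% lower). Without adjustment 2 collagens were higher and 1 lower at p under 0.05, against 4.09% and 4.27% of all genes. DESeq2 called 1 higher (Col8a2), where it called 0.868% of all genes higher and 0.445% lower, and limma-voom called 0. The B-cell covariate gave 1 higher (Col12a1), against 0.92% higher and 0.178% lower. Groups did not overlap for 3 collagens higher and 4 lower, against 10.5% and 10.7%. Col1a1 had the highest value by the naming rule, 1.13 ± 0.48 (adjusted p = 0.566 by edgeR), from 1833 and 758 CPM to 4163, 1901 and 2442 CPM, which did not overlap. In TPM its groups did overlap, at 425 and 153 on diet and 318, 234 and 391 with rosiglitazone. On the log2(TPM + 1) scale the collagen median was -0.47, against -0.60 over all genes. That fit called Col13a1 and Col6a6, both lower, where 0.942% of all genes were called. Col1a2 stood at 0.50 ± 0.46 by edgeR and overlapped in CPM. Col8a2, a short-chain collagen named after its value was seen, measured 0.345 and 0.359 CPM on diet and 5.74, 1.28 and 1.49 CPM with rosiglitazone, or 7 and 9 reads against 92, 17 and 24 (2.99 ± 0.73, adjusted p = 0.269 by edgeR). The lowest value by the rule was that of Col17a1, a transmembrane collagen of skin epithelium, at -1.08 ± 1.41. Col17a1 measured 25.1 CPM in WT on diet replicate 3 and 17.0 CPM in WT with rosiglitazone replicate 3, where the 8 epithelial markers summed to 118 and 51.1 CPM, against 0.985 to 13.1 CPM elsewhere with sums of 2.86 to 30.0 CPM.

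The interaction, which asks whether the response to rosiglitazone differed between genotypes, called 0 of 41 collagens by edgeR, where 0.104% of all tested genes were called (0.0853% higher, 0.0185% lower). Without adjustment 2 were higher and 2 lower, against 4.9% and 5.64% of all genes, and DESeq2 and limma-voom called 0. The median was 0.48 over the collagens and 0.00 over all genes, with 30 of 41 values above 0. That median was 0.23 without WT on diet replicate 1, 0.91 without KO on diet replicate 1, 0.83 without the 4 libraries richest in muscle reads and -0.39 with WT libraries grouped by title. Col6a4 had the highest value by the rule (1.84 ± 1.86) and Col14a1 the lowest (-1.17 ± 0.62, adjusted p = 0.548 by edgeR). With the B-cell covariate edgeR called 9 collagens higher and 0 lower, against 0.964% and 0.111% of all genes, led by Col18a1 at 2.96. Col18a1 stood at 1.76 ± 0.67 without it (adjusted p = 0.406 by edgeR) and at -0.29 with WT libraries grouped by title. The remaining members are the Col4a3, Col4a4 and Col4a6 chains, Col6a5, Col7a1 of anchoring fibrils, Col8a1, Col10a1, Col13a1, Col16a1, Col19a1, Col22a1, Col23a1, Col24a1, Col25a1, Col26a1, Col28a1 and Col9a3. None of these passed the edgeR threshold in any of the 6 comparisons, with log2 fold changes from -2.38 (Col13a1, rosiglitazone in KO) to 1.64 (Col16a1, interaction). For Col25a1 and Col26a1 1.96% and 0.581% of reads fell in protein-coding transcripts, the bulk going to 1 retained-intron transcript each, so their values say little about coding mRNA.

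Ratios of 2 chains within a library do not depend on the scaling between libraries, and several followed the groups. Col1a1 over Col4a1, in TPM, was 0.214, 0.30 and 0.520 in WT on diet, 0.378, 0.426 and 0.540 in WT with rosiglitazone, 0.826 and 0.961 in KO on diet and 3.00, 1.49 and 1.90 in KO with rosiglitazone. Every KO library exceeded every WT library, and the 3 KO libraries with rosiglitazone exceeded the 2 on diet. With the leading coding transcript of each gene the ratios were 0.666 to 2.01 in WT and 3.14 to 9.14 in KO, the same separation of the genotypes at a higher level. The WT ratios then lay on both sides of 1, whereas over all transcripts they lay below 1. Col5a3 over Col5a1 was 3.12 to 3.96 in WT with rosiglitazone and 0.922 to 1.34 in the other 8 libraries. Thus the proportion of the type V chains set WT with rosiglitazone apart from all the other groups. Col1a1 over Col1a2, which together form type I collagen, was 0.916 to 1.07 in WT, 0.769 and 0.716 in KO on diet and 1.12 to 1.24 in KO with rosiglitazone. Col6a1 over Col6a2 was 0.713 to 0.815 in WT with rosiglitazone and 0.981 to 1.17 elsewhere. Col4a1 over Col4a2, neighbours on chromosome 8 that are transcribed head to head with 22 overlapping bases, was 3.28 to 4.56 in WT on diet, 3.42 to 3.94 in WT with rosiglitazone, 4.38 and 4.77 in KO on diet and 3.34 to 3.62 in KO with rosiglitazone. KO on diet lay above both rosiglitazone groups and overlapped WT on diet. With the leading coding transcripts this ratio was 1.09 to 1.32, and KO on diet overlapped every other group. The pairs Col3a1 and Col5a2, Col4a3 and Col4a4, Col4a5 and Col4a6, and Col6a1 and Col6a2 are also neighbours, and Col6a4, Col6a5 and Col6a6 lie in 1 row on chromosome 9. These ratios were chosen as chains of 1 molecule or of opposite classes and carry no test.

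**Figure D4:**
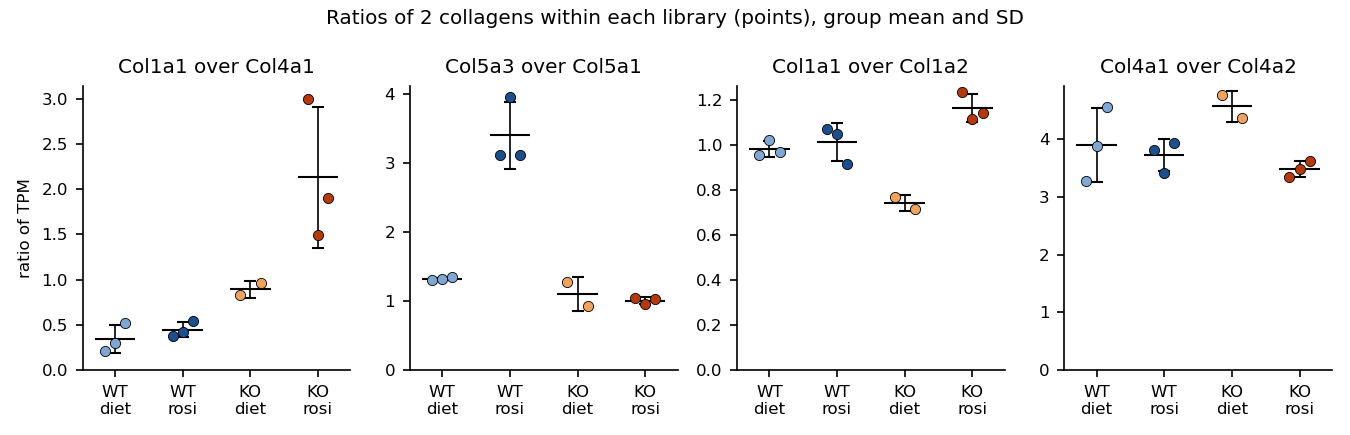
Ratio of the TPM of 2 collagens (y axes, linear from 0) in each library (points) by group (x axes), with the group mean and SD. Col1a1 over Col4a1 is highest in KO with rosiglitazone (1.49 to 3.00), Col5a3 over Col5a1 is highest in WT with rosiglitazone (3.12 to 3.96), and Col4a1 over Col4a2 is 4.38 and 4.77 in KO on diet, above both rosiglitazone groups and overlapping WT on diet.

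The reads of Col18a1, which encodes collagen XVIII (the precursor of endostatin), were divided among its transcripts in proportions that followed the groups. The gene (ENSMUSG00000001435.15, GRCm38 chr10:77052178-77166548, minus strand) has 2 RefSeq starts that lie 52825 bases apart. The 250 bases before the upstream start, GRCm38.p6 chr10:77166531-77166780 (minus strand), are shown because the transcript from this start had its highest share in KO with rosiglitazone; capitals mark the same 3 motifs as above.
Col18a1: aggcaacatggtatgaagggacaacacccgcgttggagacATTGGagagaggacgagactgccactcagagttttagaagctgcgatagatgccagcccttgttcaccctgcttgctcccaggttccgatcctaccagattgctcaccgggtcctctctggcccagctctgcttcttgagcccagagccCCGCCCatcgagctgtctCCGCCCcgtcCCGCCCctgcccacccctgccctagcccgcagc
This window holds 1 CCAAT match and 3 GGGCGG matches, and the 250 bases before the downstream start hold 0 of either.

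Col18a1-202, the transcript of 5063 bases that begins at the upstream start, took 29.0%, 29.6% and 38.7% of Col18a1 reads in WT on diet, 36.8%, 51.1% and 44.3% in WT with rosiglitazone, 53.4% and 43.3% in KO on diet and 72.1%, 74.1% and 69.8% in KO with rosiglitazone. KO with rosiglitazone lay above all other libraries. Col18a1-201, the transcript of 5595 bases that begins near the downstream start and was the largest in WT on diet replicates 1 and 2, took 49.5%, 49.2% and 38.0% in WT on diet and 30.4%, 26.4% and 32.1% in WT with rosiglitazone. It took 16.8% and 34.7% in KO on diet and 11.6%, 7.98% and 9.20% in KO with rosiglitazone, below all other libraries. In TPM, Col18a1-202 measured 8.57 to 9.71 in WT with rosiglitazone and above these, up to 19.8, in KO with rosiglitazone, while Col18a1-201 measured 4.52 to 6.38 against 1.42 to 2.35. The gene total stood at a log2 fold change of 0.52 ± 0.44 in that comparison (adjusted p = 0.442 by edgeR). The shares are Salmon's division of reads among transcripts that overlap in most exons, they were noticed in these data, and they carry no test. Col18a1 also overlaps Slc19a1 on the opposite strand, and strand is not given in the sources used here.

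**Figure D5:**
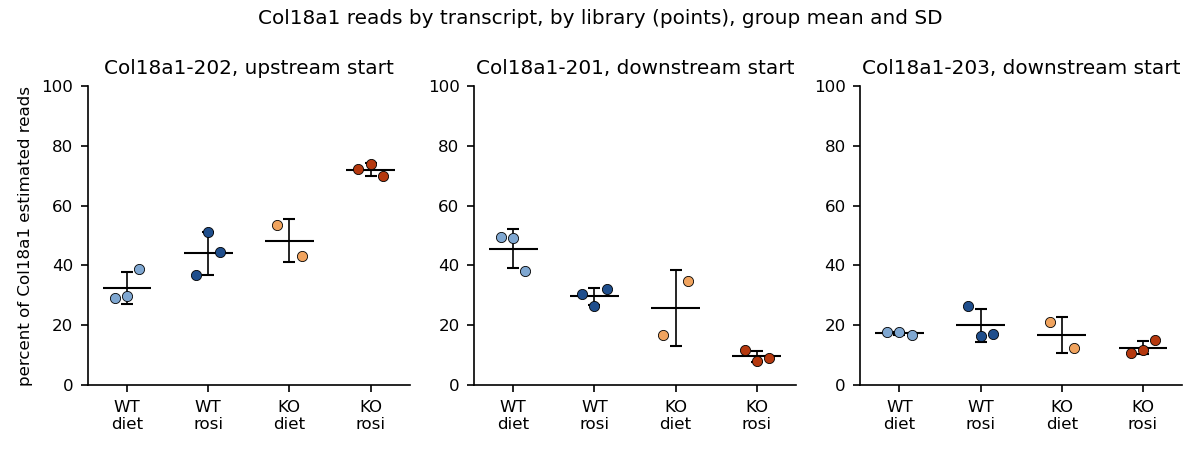
Percent of Col18a1 estimated reads (y axes, 0 to 100) assigned to its 3 longest coding transcripts in each library (points) by group (x axes), with the group mean and SD. Col18a1-202, from the upstream start, reaches 69.8% to 74.1% in KO with rosiglitazone, where Col18a1-201 has its lowest shares, 7.98% to 11.6%.

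Genes that build collagen had calls in the same direction as the collagens, of which 5 of 41 were higher in KO with rosiglitazone. In KO against WT with rosiglitazone, 4 of 36 tested maturation genes were higher and 0 lower by edgeR, against the 5.47% and 9.5% of all genes given above, with a median of -0.08. They were the propeptide proteases and enhancer Adamts14 (log2 fold change 1.51 ± 0.18, adjusted p = 0.00136) and Pcolce (1.08 ± 0.31, adjusted p = 0.0443), the cross-linking enzyme Loxl3 (1.10 ± 0.30, adjusted p = 0.0367) and the collagen galactosyltransferase Colgalt1 (0.77 ± 0.18, adjusted p = 0.0204), all by edgeR. The collagen chaperone Serpinh1, which binds the same chains in the endoplasmic reticulum, measured 166, 233 and 207 CPM in WT and 125, 153 and 153 CPM in KO. Lox, the main cross-linking oxidase, measured 181, 231 and 187 CPM against 94.6, 87.7 and 93.4 CPM, and neither passed the test (adjusted p = 0.522 and 0.226 by edgeR); both were chosen after their values were seen.

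Genes of collagen breakdown and uptake had 6 of 22 tested members higher and 1 lower, with a median of 0.93. In this comparison 15% of all tested genes were called, by direction as given above. The lysosomal proteases Ctsk and Ctss had the greatest log2 fold changes, 3.45 ± 0.47 (adjusted p = 0.00248 by edgeR) and 3.14 ± 0.29 (adjusted p = 0.000547 by edgeR), followed by the macrophage elastase Mmp12 at 3.06 ± 0.44 and the cathepsin Ctsl at 2.02. Ctsk, the collagen-degrading cathepsin, measured 6.43, 9.58 and 9.13 CPM in WT and 106, 79.5 and 88.7 CPM in KO. Timp2 (1.41) and Mmp14 (1.25), the membrane-bound collagenase, also rose, and the inhibitor Timp4 fell by 1.81. In the same comparison 11 of 13 macrophage markers were higher, their sums being 662 to 809 CPM in WT and 2620 to 3248 CPM in KO; the part of macrophage content in these values was not tested. Among 12 receptors Lair1, the collagen receptor of leukocytes, was higher (0.99 ± 0.21, adjusted p = 0.0139 by edgeR), and the integrin subunit Itga1 (-1.90 ± 0.33) and the receptor kinase Ddr1 (-1.69 ± 0.30) were lower.

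Partners of collagen IV in the basement membrane had 1 of 14 members higher and 2 lower, with a median of -0.61. These counts and those below stand beside 15% of all tested genes called, by direction as given above. Pxdn, the peroxidase that cross-links collagen IV, measured 383, 413 and 388 CPM in WT and 85.5, 85.8 and 81.8 CPM in KO (-2.23 ± 0.46, adjusted p = 0.0130 by edgeR), and the laminin chain Lama4 was lower (-1.82 ± 0.43, adjusted p = 0.0220 by edgeR). The laminin chain Lama3 was higher (1.26 ± 0.25). In the TGF-beta pathway, a known inducer of fibrillar collagens, 2 of 20 members were higher, the ligand Tgfb1 (1.34 ± 0.20, adjusted p = 0.00338 by edgeR) and the receptor Tgfbr1 (0.57 ± 0.14). Lower were Ltbp3 (-1.81 ± 0.39), Ltbp2 (-1.41 ± 0.18) and Smad2 (-0.69 ± 0.17), with a median of -0.02 for the list. Of 22 other matrix genes 0 were higher and 2 lower, Ccn2 (-1.42 ± 0.37) and Fbln5 (-1.31 ± 0.37), near the share of all genes called lower.

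Of the 15 fibroblast and progenitor markers 1 was higher and 1 lower in that comparison, and their summed level was 5136 to 6559 CPM in WT and 1873 to 2657 CPM in KO, while the median log2 fold change of the list was 0.81. Of all tested genes 15% were called, so these counts of markers are near the share of all genes. Of the 15 mature adipocyte markers 13 were lower (39930 to 45440 CPM in WT, 6218 to 7039 CPM in KO), and of the 12 endothelial markers 5 were lower (1016 to 1386 CPM against 652 to 693 CPM). The 9 cartilage and tendon markers summed to 6.34 to 7.14 CPM in WT and 9.86 to 13.8 CPM in KO. The part of these cell types in the collagen values was not tested.

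Averaged over treatments, a comparison that shares those libraries, 8 of 22 breakdown and uptake genes were higher and 1 lower by edgeR, against 4.57% and 8.2% of all genes. The gelatinase Mmp2 (log2 fold change 1.18), the stromelysin Mmp3 (1.67) and the uptake receptor Mrc1 (1.31), also a macrophage marker, were among them, beside Ctsk (2.33), Mmp12 (2.11), Ctss (2.03), Timp2 (1.40) and Mmp14 (0.99). Among receptors Antxr1 (1.03) and Itga11 (1.00), an integrin subunit for fibrillar collagen, were higher with Lair1 (0.64), and Ddr1 (-1.77) and Itga1 (-1.48) were lower. Among basement membrane partners the perlecan gene Hspg2 (-1.21), Pxdn (-1.99) and Lama4 (-1.20) were lower and Lamc3 (1.42) was higher. In the TGF-beta pathway the ligand Tgfb2 (1.19) and the receptor Tgfbr2 (0.77) were among the higher genes, and Ltbp3 (-1.85) and Ltbp2 (-1.07) were among the lower ones. Rosiglitazone in WT called the elastic-fibre protein Mfap4 higher (2.28 ± 0.44) and Lama3 (-1.79 ± 0.25) and Ctss (-1.52 ± 0.28) lower, and 0 genes of these lists were called for rosiglitazone in KO, KO on diet or the interaction.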

How the data were processed

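Bulk RNA sequencing of Trizol-extracted inguinal fat with Nextera XT libraries was quantified with Salmon per the submitters' processing notes. Those list edgeR too, and mm10 and GRCm38 as builds, all without versions. The deposited files hold, per the file headers, estimated counts (expected counts) and TPM for each transcript as the authors' Salmon run gave them. Here both were summed per gene with the GENCODE M21 annotation (GRCm38), matched on transcript identifiers; 131892 of 132288 listed transcripts matched (99.7%), and unmatched ones held 0.0985% to 0.144% of reads. Gene counts were rounded and scaled by TMM. Genes were filtered with filterByExpr by group, which left 26960. A single edgeR 4.0.16 quasi-likelihood model (R 4.3.3, robust) over the 4 groups and 11 libraries gave 6 contrasts, with Benjamini-Hochberg adjustment over all tested genes and a threshold of 0.05. CPM are TMM-scaled. The estimated reads, 13035346 to 40925952 per library, limit low genes. Groups follow the treatment characteristic. No 2 replicate libraries were identical; their chi-square per degree of freedom was 28.2 to 148.

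Named genes are all called collagens, the highest and lowest log2 fold change per comparison among collagens whose average log2 CPM reached 1, the major chains, and of each other list up to 4 called genes with the smallest p per comparison, to which further called genes were added after their values were seen. Alternatives were RLE scaling, no filter, DESeq2 1.42.0, limma-voom and limma-trend 3.58.1 (log2(TPM + 1) and log2(TPM + 0.1)), a replicate block, title grouping, muscle and B-cell marker covariates, protein-coding transcripts only and leaving out libraries. The collagens, the other gene lists and the tests were chosen with earlier results of these data known. The main edgeR fit was tested on simulated data with 200 changed genes per comparison, and the alternatives were not. Simulated 2-fold changes were recovered in 5% of genes for rosiglitazone in WT and 0% in KO. For KO on diet, KO with rosiglitazone and KO averaged it was 2%, 3% and 29%, and for the interaction 0%. Recovery of 4-fold changes was 68%, 39%, 51%, 60%, 85% and 11% in that order. A comparison without calls can thus hide 2-fold changes. Promoter sequences are RefSeq's (GRCm38.p6).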

Additional observations from a re-analysis of the deposited data

How the results depend on the processing

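The numbers of collagens called by edgeR, given in the order rosiglitazone in WT, rosiglitazone in KO, KO on diet, KO with rosiglitazone, KO averaged over treatments and interaction, were 0, 0, 0, 5, 6 and 0. With DESeq2 the first 5 were 2, 1, 1, 9 and 11. Limma-voom gave 7 for rosiglitazone in WT and 15 for KO with rosiglitazone. On log2(TPM + 1) rosiglitazone in KO gave 2 (0.942% of all genes called), KO with rosiglitazone 1 (15.1%) and KO averaged 1 (7.42%), and on log2(TPM + 0.1) the latter 2 gave 2 (15.6%) and 1 (7.13%). Col11a1 in KO with rosiglitazone turned to -0.08 and -0.30 on these scales; the cause was not tested. With the replicate block KO with rosiglitazone gave 2 calls, Col1a1 (1.80) and Col1a2 (1.59), where 12.8% of all genes were called, and KO averaged 6, 5 higher and 1 lower (11.8%). The replicate numbers are shared in the labels without a stated pairing, and 6 of 15 same-number pairs had deviations correlated above 0.1 (range -0.42 to 0.60). WT libraries grouped by title gave 1 call for KO on diet (Col6a6; 10.7% of all genes) and 0 for KO with rosiglitazone (2.31%). The muscle covariate gave 1 (Col1a1; 10.5% of all genes) for KO with rosiglitazone and 1 (Col27a1; 6.99%) for KO averaged. The B-cell covariate gave 9, 1, 9, 12, 12 and 9, and kept 2 of the 5 and 6 of the 6 calls. Chosen after seeing the data, a fit without the 4 muscle-rich libraries, which leaves 1 WT library with rosiglitazone, gave 0 for both KO with rosiglitazone and KO averaged, and protein-coding transcripts alone gave 2 for rosiglitazone in WT and 9 for KO with rosiglitazone. With 1 library left out, KO with rosiglitazone ranged from 0 to 10, KO averaged from 1 to 10 and the other 4 stayed at 0; without a KO library on diet, the lone one was assumed to vary like the other groups. RLE scaling and no filter kept every count within 1.5 times. Over all named genes and alternatives, 2 values in KO with rosiglitazone reversed, 59 lost and 30 gained a call, and in KO averaged 0 reversed, 64 lost and 24 gained a call. Depth limits the chains with few reads, such as Col11a1 and Col8a2.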
